A study of Trachinotus blochii with 22 samples.

Results

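The let-7 family was followed in small RNA sequencing of golden pompano (Trachinotus blochii) liver. Its members were taken by name, as every entry of the deposited miRNA table whose name after the species prefix begins with let-7, with any letter, copy number or arm. The table holds 80 such names among 2108. Entries with the same values in all 22 libraries were counted once, which left 56 distinct let-7 entries of 1402 distinct entries, or 3.99%. They carry 38 species prefixes and 12 forms of the name (let-7 with no letter, and let-7a to let-7k). Of the 56, 16 are named as the 5p arm, 18 as the 3p arm, and 22 state no arm. A prefix names the species of the sequence the reads were matched to, not the species sequenced, so cel-let-7-5p stands for pompano reads that matched the Caenorhabditis elegans sequence.

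let-7 was found in C. elegans as a regulator of the timing of larval development, and its mature sequence is kept almost letter for letter in vertebrates, where many gene copies make closely related forms that share one seed. The RNA-binding protein LIN28 blocks the maturation of let-7 precursors, and let-7 in turn represses LIN28, HMGA2 and RAS genes, a loop known from mammalian embryos and tumours. In adult vertebrate tissues, liver among them, mature let-7 is abundant, and in mice the LIN28 and let-7 pair is known to affect glucose metabolism.

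The study set out to follow liver miRNAs through hypoxia and through reoxygenation at different rates. The labels name no strain or genotype. The groups were gradual reoxygenation at 12 h (3 libraries) and 3 h (3), rapid reoxygenation at 12 h (2) and 3 h (3), hypoxia at 12 h (3) and 0 h (3), and normoxia at 12 h (3) and 0 h (2). The labels do not give the age of the fish, the oxygen levels or the moment from which hours are counted, and do not say whether libraries are separate fish. The p-values therefore measure spread among samples that may be technical. The treatment letters in the table are not explained, and columns were tied to treatments by their times and by the number of libraries per time. The columns taken as normoxia 0 h carry no time at all and are numbered 2 and 3, and every comparison with that group rests on this placement.

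Levels are given in CPM, the reads assigned to an entry after every library was brought to the same total. Summed over all entries, between 17.5 and 33.8 M read assignments were made per library. Near copies hold almost equal counts, so a read appears to have been counted in more than one entry, and 1 read was worth 0.0296 to 0.0572 CPM. The number of separate reads behind these sums is not known. Library 2 of normoxia 0 h stood apart, with a root mean square distance of 1.34 log2 units from the medians of the 22 libraries over all 602 tested entries, against 0.345 to 0.868 for the other 21. The main hepatocyte miRNA, oha-miR-122-5p, was at 37563.2 CPM there, the lowest of the 22 libraries. Over all its entries, miR-122 made up 17.5% of the CPM in that library, against 33.1% to 51.6% in the others. The summed hepatocyte markers, which count miR-122 by oha-miR-122-5p alone, reached 143233.6 CPM in normoxia 0 h, above every other group. The other markers of that list were at their highest of the 22 libraries in library 2 of normoxia 0 h, ola-miR-192-5p at 98914.2 CPM and ola-miR-194-5p at 6756.2 CPM. All 5 epithelial markers (the miR-200 and miR-141 group) were highest there too, summing to 19714.3 CPM, as were efu-miR-143, a smooth muscle and stromal miRNA (65321.6 CPM), and the muscle miRNA mmu-miR-1b-5p (450 CPM). dre-miR-145-5p and mmu-miR-133a-3p were highest there as well, but other muscle, vascular and stromal markers were not. dre-miR-126a-3p (2434 CPM), mmu-miR-199a-5p (858 CPM) and hsa-miR-222-3p (107 CPM) were at their lowest of the 22 libraries. mmu-miR-206-3p was at 7.79 CPM, below its highest of 29.7 CPM in library 3 of hypoxia 0 h. The same library held the lowest value of the 22 for dme-let-7-5p, hsa-let-7b-5p and xtr-let-7g, and the part of these markers in any comparison with normoxia 0 h was not tested. Summed markers of other cell types are given beside the comparisons in which their groups did not overlap. The vascular and stromal sum is mostly efu-miR-143, with a mean of 22390.5 CPM, beside 4057.5 CPM for the next member, dre-miR-126a-3p. It therefore does not stand for every member of its list. No marker of these lists was at 0 in any library, and the part of the sums in the let-7 values was not tested. The table also holds a mean per group made by the authors. For 6 groups the mean in the authors' deposited table equals that of the libraries used here within 1%, but for rapid reoxygenation at 12 h and normoxia 0 h it differs for all 13 let-7 entries followed below. In the authors' deposited table cel-let-7-5p has a mean of 6771.1 CPM in rapid reoxygenation at 12 h, where the 2 libraries average 8230.3 CPM, and 8322.9 CPM in normoxia 0 h, where they average 7865.1 CPM. Why the means differ was not tested, and directions that turn with them are given beside each comparison.

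The family was abundant, and cel-let-7-5p and gga-let-7k-5p made up most of it. cel-let-7-5p, whose mature sequence is that of vertebrate let-7a, averaged 7712 ± 1826.9 CPM (SD, n = 22) and ranked 28 among all distinct entries. It ran from 4982.1 CPM in library 3 of gradual reoxygenation at 12 h to 11555.9 CPM in library 2 of normoxia 12 h. gga-let-7k-5p, a let-7 form named in chicken, averaged 5128.5 ± 837 CPM (SD, n = 22). The third form, hsa-let-7f-5p, stood well below both at 1504 ± 407 CPM (SD, n = 22). The next entries in order were dme-let-7-5p at 1227.6 ± 243 CPM, dre-let-7g at 748 ± 209 CPM, and hsa-let-7b-5p at 691 ± 105 CPM (SD, n = 22 each). Below these came xtr-let-7g (517 CPM), dre-let-7h (385 CPM), dre-let-7d-5p (327 CPM), gga-let-7i (210 CPM) and ola-let-7c (145 CPM). All 12 forms of the name thus reached a mean of at least 10 CPM in some entry. The 3p arm was scarce, since its most abundant entry, oha-let-7a-3-3p, averaged 29.3 ± 8.91 CPM (SD, n = 22).

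Many of these entries do not measure separate miRNAs. The 20 entries with a mean of at least 10 CPM fall into 13 sets once entries within 0.2 log2 units of each other in every library are merged. bfl-let-7b (7368.1 CPM) follows cel-let-7-5p within 0.103 log2 units, despite its letter. efu-let-7f follows hsa-let-7f-5p within 0.0869 log2 units, at 837 to 2396 fewer reads per library. ola-let-7e differs from gga-let-7k-5p by 2 to 20 reads per library, so these let-7e and let-7k entries stand for the same signal. Counts were also almost equal for tca-let-7-5p with dme-let-7-5p and for dre-let-7j with xtr-let-7g. The same holds for 3 entries of the 3p arm (oha-let-7a-3-3p, ami-let-7a-4-3p and gga-let-7j-3p). Reads of hsa-let-7b-5p cannot be told apart from those of bta-miR-3596, which has the same values, and hsa-let-7d-5p shares its values with rno-miR-3596b. The letter of a let-7 entry in this table is therefore the letter of a reference sequence, and 13 entries, the most abundant of each set, are used below. Even these may share reads with one another.

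Summed over the 13 entries, let-7 took 14068.9 to 24547.4 CPM per library, with a median of 18320.8 CPM. By group the sum averaged 20003.7 ± 4239.9 CPM in gradual reoxygenation at 12 h and 17387.6 ± 825 CPM at 3 h (SD, n = 3 each). Under rapid reoxygenation it averaged 19322.8 ± 7388.7 CPM at 12 h (SD, n = 2) and 17200.7 ± 3501.7 CPM at 3 h (SD, n = 3). In hypoxia it averaged 16510.8 ± 2349.1 CPM at 12 h and 20131.5 ± 1777.7 CPM at 0 h (SD, n = 3 each). Normoxia had 19955.7 ± 3378.8 CPM at 12 h (SD, n = 3) and 18909.8 ± 4076.8 CPM at 0 h (SD, n = 2). Libraries of one group could lie as far apart as any groups did: those of rapid reoxygenation at 12 h were at 14098.2 and 24547.4 CPM, close to the lowest and at the highest of the 22.

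The same 2 entries led the family in every library. cel-let-7-5p took 31.2% to 49.1% of the summed CPM (median 41.5%) and gga-let-7k-5p 19.8% to 39.2% (median 27.8%). The ratio of cel-let-7-5p to gga-let-7k-5p had a median of 1.52. It was below 1 in 1 library, library 3 of gradual reoxygenation at 12 h, at 0.795, and was highest in library 2 of normoxia 12 h, at 2.48. The other libraries of those groups were at 1.39 and 1.6 (gradual reoxygenation at 12 h) and at 1.56 and 1.62 (normoxia 12 h). For every 100 reads of the other arms and unnamed arms, the 3p entry held 0.106 to 0.27 reads.

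**Figure D1:**
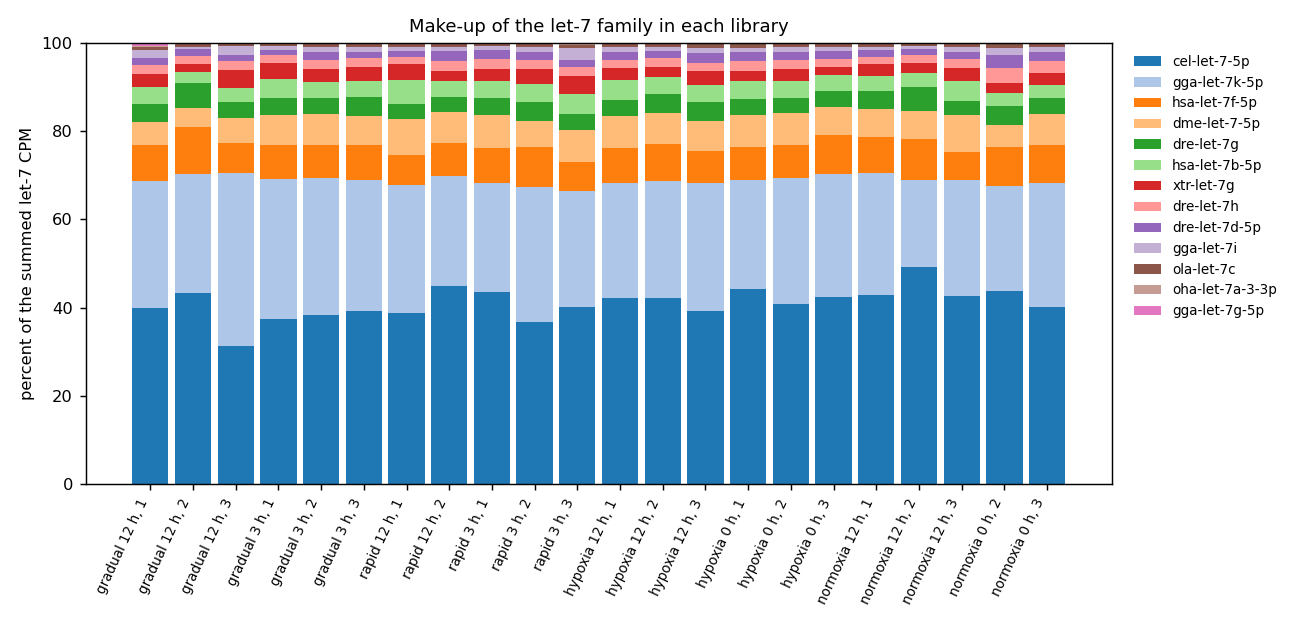
Share of each of 13 let-7 entries in their summed CPM (y axis, percent), one stacked bar for each of the 22 libraries (x axis, group and library number). cel-let-7-5p takes 31.2% to 49.1% and gga-let-7k-5p 19.8% to 39.2% in every group, and library 3 of gradual reoxygenation at 12 h is the only bar in which gga-let-7k-5p is the larger.

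Among replicate libraries the let-7 entries spread about as widely as other miRNAs. The SD within groups, on the log2(CPM + 1) scale, had a median of 0.324 over the 20 let-7 entries of at least 10 CPM and 0.397 over the 320 tested entries of that level. It was lowest for xtr-let-7g at 0.191 and hsa-let-7b-5p at 0.2, and highest for gga-let-7g-5p at 1.2. This spread, with 2 or 3 libraries a group, sets what the comparisons below can resolve. For cel-let-7-5p a difference between groups of 3 libraries carried an SE of 0.29 log2 units.

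The test took in 602 entries that reached 1 CPM in 2 or more libraries, of which 34 were let-7. The other 22 let-7 entries never exceeded 0.866 CPM in any library. Tests were made with limma on log2(CPM + 1), in one fit of all 8 groups, and p-values were adjusted over the 602 entries by the Benjamini-Hochberg method, with a threshold of 0.05. On that scale the change of a low entry is understated. None of the 34 let-7 entries passed in any of the 19 tests, with a smallest adjusted p of 0.11 by limma. In the test for any difference among the 8 groups, limma called 0 let-7 entries, beside 1.5% of all tested entries. There, 1 let-7 entry had an unadjusted p under 0.05, edgeR on the recovered reads called 1 (14.6% of all entries) and DESeq2 called 8 (24.8% of all entries). The 8 belong to 4 of the 13 sets, those of gga-let-7k-5p, xtr-let-7g, oha-let-7a-3-3p and gga-let-7g-5p, and the edgeR call is gga-let-7g-5p.

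**Figure D2:**
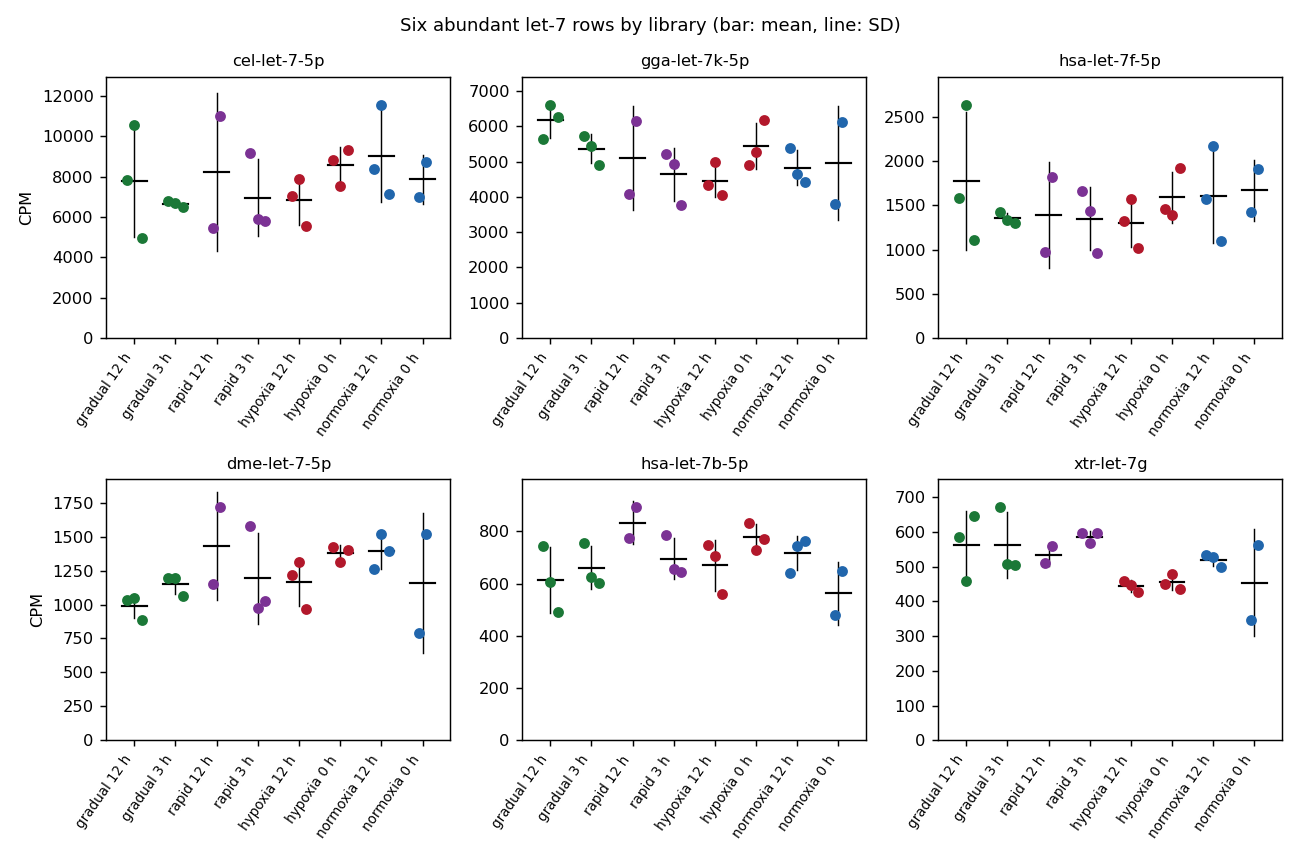
Level in CPM (y axis) of 6 abundant let-7 entries by group (x axis). Points are libraries, bars the group mean and lines the SD. In gga-let-7k-5p the 3 libraries of gradual reoxygenation at 12 h (5629.2 to 6603.1 CPM) lie above the 3 of hypoxia 12 h (4064.8 to 4982 CPM), while those of cel-let-7-5p overlap.

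Gradual reoxygenation at 12 h, set against hypoxia at 12 h, gave the smallest adjusted p of any of these entries against hypoxia by DESeq2, in the second most abundant form. gga-let-7k-5p had 5629.2, 6603.1 and 6266.8 CPM after gradual reoxygenation, against 4336.1, 4982 and 4064.8 CPM in hypoxia. All 3 libraries of gradual reoxygenation were above all 3 of hypoxia. The log2 change was 0.47 ± 0.20 (SE; 95% interval 0.05 to 0.89), and it did not pass by limma (adjusted p = 0.474) or by edgeR (adjusted p = 0.0731), whereas DESeq2 called it (log2 change 0.6, adjusted p = 0.00311). limma called 0 of the 34 let-7 entries here, beside 0.0% of all entries. At an unadjusted p under 0.05 it had 3 let-7 entries (8.82%, beside 9.8% of all entries), edgeR called 0 of all entries, and DESeq2 called 5 let-7 entries, beside 2.82% of all entries. The DESeq2 calls were gga-let-7k-5p with its copy ola-let-7e, xtr-let-7g with its copy dre-let-7j, and gga-let-7g-5p. The groups did not overlap for 5 let-7 entries that were higher and 2 that were lower, 20.6% of the 34, beside 23.8% of all tested entries. The median log2 change was 0.14 over the let-7 entries and -0.11 over all entries, and TMM scaling factors moved the median of all entries to 0.04 and that of let-7 to 0.31. The groups overlapped for all 8 lists of cell type markers.

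xtr-let-7g, which matches the let-7g of the frog Xenopus tropicalis and cannot be told apart from zebrafish dre-let-7j here, varied little among hypoxia libraries. It was at 585, 460 and 647 CPM in gradual reoxygenation at 12 h and at 511 and 559 CPM in rapid reoxygenation at 12 h, against 459, 448 and 426 CPM in hypoxia 12 h. Gradual reoxygenation was higher by 0.33 ± 0.19 (log2, SE; limma adjusted p = 0.6, DESeq2 adjusted p = 0.0143) and rapid reoxygenation by 0.27 ± 0.21 (log2, SE; limma adjusted p = 0.978). Neither pair of groups overlapped in the libraries used, although the lowest library of gradual reoxygenation (460 CPM) and the highest of hypoxia (459 CPM) were almost level. Without library 1 of gradual reoxygenation at 12 h, DESeq2 no longer called it (log2 change 0.45, adjusted p = 0.119), while gga-let-7k-5p kept its DESeq2 call (log2 change 0.67, adjusted p = 0.0117). Library 1 held the lowest gga-let-7k-5p value of its group (5629.2 CPM), so leaving it out raised the change. DESeq2 was not rerun without any other library of gradual reoxygenation at 12 h or of hypoxia 12 h, so whether the call rests on one of those is not known.

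cel-let-7-5p itself had 7844.6, 10555.4 and 4982.1 CPM in gradual reoxygenation at 12 h, 5465.2 and 10995.4 CPM in rapid reoxygenation at 12 h, and 7035.1, 7904.7 and 5529.8 CPM in hypoxia 12 h. The libraries of each reoxygenation group enclosed those of hypoxia. Its log2 change against hypoxia 12 h was 0.14 ± 0.29 for gradual (95% interval -0.46 to 0.74; limma adjusted p = 0.974) and 0.20 ± 0.32 for rapid reoxygenation (SE; 95% interval -0.48 to 0.87; limma adjusted p = 0.978). Changes of any size within these intervals remain possible with 2 or 3 libraries a group.

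Rapid reoxygenation at 12 h against hypoxia 12 h gave positive log2 changes for 12 of the 13 entries, and for 11 or 12 under each other scaling tried, but the authors' deposited table puts its group mean above that of hypoxia 12 h for 3 entries and below it for 10. In the authors' deposited table gga-let-7k-5p has a mean of 4194.4 CPM in rapid reoxygenation at 12 h and 4461 CPM in hypoxia 12 h, and xtr-let-7g has 419 and 444 CPM in these groups. No direction can be given for rapid reoxygenation at 12 h. The median log2 change was 0.21 over the 34 let-7 entries (0.09 with quantile normalization) and -0.01 over all entries. limma called 0 let-7 entries, beside 0.0% of all entries, with 1 at an unadjusted p under 0.05, and edgeR and DESeq2 called 0 as well, both without a call in the whole table. hsa-let-7b-5p was at 775 and 892 CPM in rapid reoxygenation, against 747, 705 and 561 CPM in hypoxia, without overlap, for a log2 change of 0.32 ± 0.21 (SE; limma adjusted p = 0.978). The low pma-let-7d, a lamprey form, had 9.78 and 20.1 CPM in rapid reoxygenation against 5.59, 6.97 and 7.57 CPM in hypoxia (log2 change 0.98 ± 0.43, SE; limma adjusted p = 0.883). Separation of the groups held for 14.7% of the let-7 entries, all higher, beside 22.9% of all entries. The direction depended on the library. The let-7 median was 0.54 without library 1 of rapid reoxygenation at 12 h and -0.15 without library 2, which had the highest family sum of all. Epithelial markers summed to 1983.6 to 2525.3 CPM in rapid reoxygenation against 2703.7 to 3477.4 CPM in hypoxia.

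**Figure D3:**
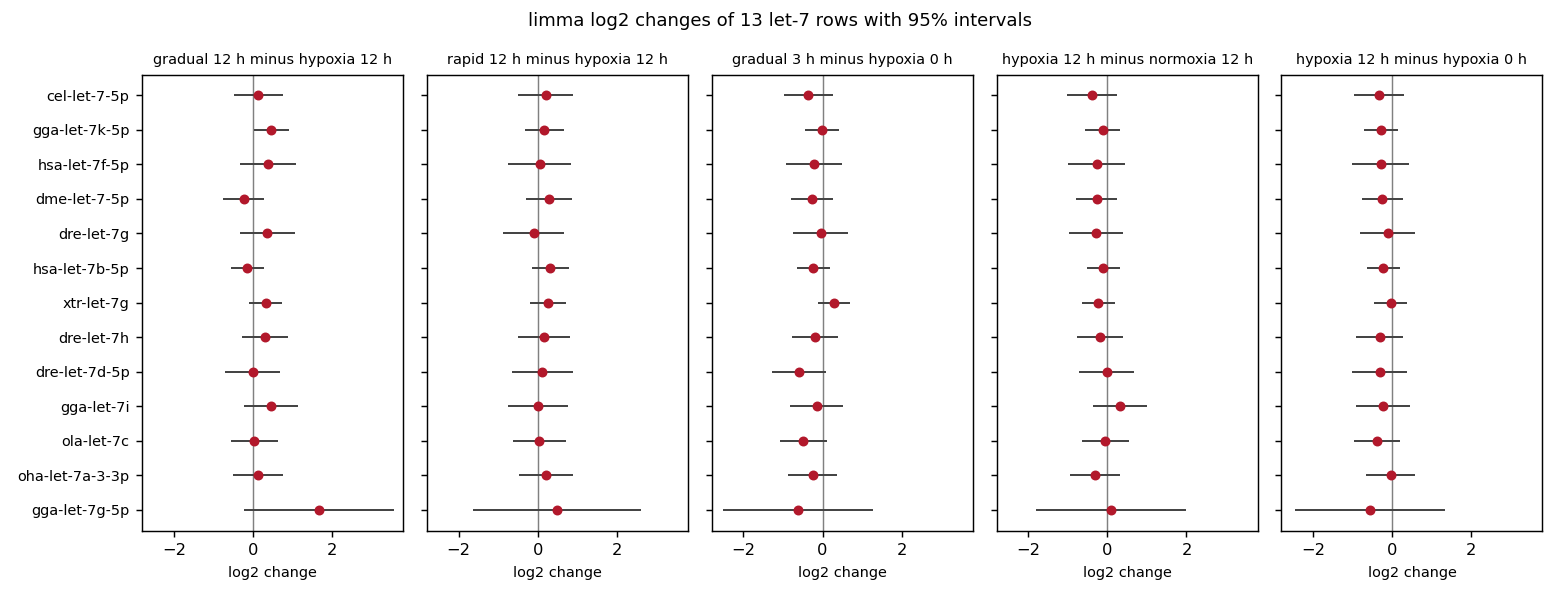
limma log2 changes on the log2(CPM + 1) scale (x axis) with 95% intervals for 13 let-7 entries (y axis) in 5 comparisons. Of these entries, gga-let-7k-5p in gradual reoxygenation at 12 h minus hypoxia 12 h is the one whose interval (0.05 to 0.89) lies off 0, and the widest intervals belong to gga-let-7g-5p.

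At 3 h of gradual reoxygenation, 12 of the 13 entries had negative log2 changes against hypoxia 0 h (10 to 12 under the other scalings), xtr-let-7g being the one above 0. cel-let-7-5p was at 6807.8, 6675.2 and 6471.8 CPM in gradual reoxygenation at 3 h, against 8820, 7551.9 and 9308.3 CPM in hypoxia 0 h. These groups did not overlap, yet the log2 change of -0.36 ± 0.29 (SE; 95% interval -0.96 to 0.24) did not pass (limma adjusted p = 0.594). ola-let-7c was at 108, 142 and 132 CPM in gradual reoxygenation, against 195, 160 and 182 CPM in hypoxia 0 h (log2 change -0.49 ± 0.27, SE; limma adjusted p = 0.413). xtr-let-7g was at 671, 509 and 506 CPM in gradual reoxygenation, against 451, 480 and 437 CPM in hypoxia 0 h (log2 change 0.29 ± 0.19, SE; limma adjusted p = 0.502). No overlap between groups was seen for 4 let-7 entries that were higher and 10 that were lower, 41.2% of the 34, in a comparison where this held for 31.6% of all entries. They include near copies and so are not separate signals: bfl-let-7b with cel-let-7-5p, tca-let-7-5p with dme-let-7-5p, and dre-let-7j with xtr-let-7g. limma called 0 let-7 entries, beside 0.0% of all entries, with 1 at an unadjusted p under 0.05, which was gmo-let-7j-3p. edgeR called 0 let-7 entries (0.0% of all entries) and DESeq2 0 (3.49% of all entries). The median log2 change was -0.17 over let-7 and 0.02 over all entries. It was -0.02 over let-7 and 0.16 over all entries when libraries were scaled without miR-122, and -0.05 and 0.12 with quantile normalization. The marker sums of 6 cell types did not overlap in this pair of groups. Erythroid markers (miR-144 and miR-451) summed to 9457.7 to 12790.9 CPM in gradual reoxygenation at 3 h against 2674 to 4849.2 CPM in hypoxia 0 h, and pancreatic markers (miR-216a, miR-216b and miR-217) to 38.4 to 1388.4 CPM against 2300.1 to 3498.7 CPM. Vascular and stromal markers summed to 21327.3 to 23717.8 CPM in gradual reoxygenation against 29601.2 to 41801.1 CPM in hypoxia, epithelial markers to 1493.2 to 2082.5 CPM against 2419.8 to 3964.5 CPM, and muscle markers to 24.8 to 27.7 CPM against 65.9 to 195 CPM. The vascular and stromal sum is mostly efu-miR-143. In the same list, mmu-miR-199a-5p (2957.8 CPM) and cgr-miR-214-3p (110 CPM) had their highest library in gradual reoxygenation at 3 h. Hepatocyte markers summed to 109786.9 to 120812.1 CPM in gradual reoxygenation and to 88559.7 to 107843.9 CPM in hypoxia.

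Rapid reoxygenation at 3 h against hypoxia 0 h gave negative log2 changes for 10 of the 13 entries (9 or 10 under the other scalings). The median was -0.11 over let-7 and -0.02 over all entries. xtr-let-7g was again above hypoxia in every library, at 597, 568 and 596 CPM in rapid reoxygenation against 451, 480 and 437 CPM in hypoxia 0 h. The log2 change of 0.36 ± 0.19 (SE; 95% interval -0.03 to 0.75) did not pass (limma adjusted p = 0.999), and both 3 h comparisons share the same hypoxia libraries. ola-let-7c was at 155, 125 and 99.6 CPM in rapid reoxygenation, against 195, 160 and 182 CPM in hypoxia 0 h (log2 change -0.51 ± 0.27, SE; limma adjusted p = 0.999). cel-let-7-5p was at 9196.3, 5916.3 and 5787.8 CPM in rapid reoxygenation, overlapping the hypoxia libraries. limma called 0 let-7 entries, beside 0.0% of all entries, with 0 at an unadjusted p under 0.05, and edgeR (0.0% of all entries) and DESeq2 (1.16% of all entries) also called 0 let-7 entries. Non-overlapping groups were found for 11.8% of the let-7 entries, beside 13.1% of all entries. Leukocyte markers summed to 66.2 to 80.1 CPM in rapid reoxygenation at 3 h against 83.4 to 102 CPM in hypoxia 0 h.

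Hypoxia at 12 h against normoxia at 12 h gave negative log2 changes for 31 of the 34 let-7 entries, with a median of -0.23, beside -0.01 over all entries. Among the 13 entries 11 were lower, and 8 to 11 under the other scalings. limma called 0 of them, beside 0.664% of all entries, with 0 let-7 entries at an unadjusted p under 0.05, and edgeR (0.498% of all entries) and DESeq2 (1.99% of all entries) called 0 let-7 entries. cel-let-7-5p was at 7035.1, 7904.7 and 5529.8 CPM in hypoxia 12 h, against 8375.8, 11555.9 and 7154.4 CPM in normoxia 12 h. Its groups overlapped, and the log2 change was -0.39 ± 0.29 (SE; 95% interval -0.99 to 0.21; limma adjusted p = 0.997). xtr-let-7g, at 459, 448 and 426 CPM in hypoxia 12 h against 533, 527 and 500 CPM in normoxia 12 h, did not overlap (log2 change -0.23 ± 0.19, SE; limma adjusted p = 0.997). The groups were separate for 4 let-7 entries, all lower, or 11.8%, beside 12.8% of all entries. Entries of one family share reads and libraries, so their common direction is not a count of separate observations. Erythroid markers summed to 2534.3 to 4030.6 CPM in hypoxia 12 h against 7174.7 to 13971.2 CPM in normoxia 12 h, and vascular and stromal markers to 26563.2 to 29307.2 CPM against 19752.1 to 24654.4 CPM.

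Hypoxia at 0 h against normoxia at 0 h had 6 of the 13 entries higher and 7 lower, and 10 higher and 3 lower when libraries were scaled without miR-122. That scaling moved the median log2 change of all entries by more than 0.1, to 0.18, where it was -0.05 as deposited. limma called 0 let-7 entries, beside 0.498% of all entries, with 1 at an unadjusted p under 0.05, edgeR called 0 (3.16% of all entries), and DESeq2 called 3 (7.14% of all entries). The 3 are the copies of one 3p signal. oha-let-7a-3-3p was at 26.4, 28 and 26.3 CPM in hypoxia 0 h, against 30.2 and 58.7 CPM in normoxia 0 h, a log2 change of -0.63 ± 0.32 by limma (SE; adjusted p = 0.62) and -0.69 by DESeq2 (adjusted p = 0.0428). DESeq2 no longer called oha-let-7a-3-3p without library 2 of normoxia 0 h (log2 change -0.88, adjusted p = 0.0692) or without library 3 (log2 change -0.43, adjusted p = 0.388). hsa-let-7b-5p had the smallest limma p, with 833, 729 and 770 CPM in hypoxia 0 h against 478 and 647 CPM in normoxia 0 h (log2 change 0.48 ± 0.21, SE; adjusted p = 0.476). Libraries of the groups did not overlap for 29.4% of the let-7 entries (4 higher and 6 lower), beside 16.1% of all entries. The 6 lower entries include the 3 copies of the 3p signal. Without library 3 of normoxia 0 h, which leaves that group with library 2 alone, limma gave dme-let-7-5p and its copy tca-let-7-5p a log2 change of 0.8. The lone library is then assumed to vary like the other groups. By the group means of the authors' deposited table, 4 of the 13 entries were higher in hypoxia 0 h and 9 lower. DESeq2 without library 2 of normoxia 0 h, which leaves library 3 alone there, gave hsa-let-7b-3p a log2 change of -1.51. The erythroid markers came to 2674 to 4849.2 CPM in hypoxia 0 h against 823 to 2313.1 CPM in normoxia 0 h, and pancreatic markers to 2300.1 to 3498.7 CPM against 4133.8 to 4269.7 CPM.

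Averaged over both times, hypoxia minus normoxia gave a median log2 change of -0.13 over let-7 and -0.05 over all entries, and of -0.01 and 0.07 when libraries were scaled without miR-122. limma called 0 let-7 entries, beside 0.0% of all entries, with 3 at an unadjusted p under 0.05 (the 3p copies, log2 change -0.47 ± 0.21, SE, adjusted p = 0.808), and edgeR (0.0% of all entries) and DESeq2 (0.332% of all entries) called 0. Without library 2 of normoxia 0 h, which leaves that group with library 3 alone, DESeq2 gave averaged log2 changes of -0.6 for oha-let-7a-3-3p and -0.98 for hsa-let-7b-3p. These entries were picked by their p-values in that fit. The difference of the hypoxia effect between 12 h and 0 h was tested directly. limma called 0 let-7 entries, beside 0.997% of all entries, with 1 at an unadjusted p under 0.05, and edgeR (0.664% of all entries) and DESeq2 (5.15% of all entries) called 0 let-7 entries. The 1 under 0.05 was the low entry spu-let-7 (mean 0.81 CPM; limma adjusted p = 0.551). Among the 13 entries, hsa-let-7b-5p came to -0.58 ± 0.28 in this test (log2, SE; limma adjusted p = 0.594). Without library 3 of normoxia 0 h, which leaves library 2 alone there, limma gave -1.06 (log2) for dme-let-7-5p in this test, an entry picked in the same way.

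Against normoxia at 12 h, gradual reoxygenation at 12 h again had gga-let-7k-5p higher in every library, at 5629.2, 6603.1 and 6266.8 CPM against 5380.1, 4658.6 and 4428.3 CPM in normoxia. The log2 change was 0.36 ± 0.20 (SE; limma adjusted p = 0.548, DESeq2 adjusted p = 0.0137). The comparison shares its gradual reoxygenation libraries with the one against hypoxia. dme-let-7-5p, which matches the fruit fly sequence, went the other way, at 1030.3, 1050 and 886 CPM in gradual reoxygenation against 1264, 1522.3 and 1397.1 CPM in normoxia, again without overlap (log2 change -0.50 ± 0.24, SE; limma adjusted p = 0.464, DESeq2 adjusted p = 0.377). gga-let-7i was at 325, 151 and 316 CPM in gradual reoxygenation, against 140, 121 and 184 CPM in normoxia, with the smallest limma adjusted p of the comparison, 0.363 (log2 change 0.77 ± 0.31, SE). limma called 0 let-7 entries, beside 1.66% of all entries, with 2 at an unadjusted p under 0.05, edgeR called 0 (0.0% of all entries) and DESeq2 called 3 (3.65% of all entries). These were gga-let-7k-5p, ola-let-7e and gga-let-7g-5p. Separation of the groups held for 17.6% of the let-7 entries, beside 21.3% of all entries. Erythroid markers summed to 863 to 4500.8 CPM in gradual reoxygenation at 12 h against 7174.7 to 13971.2 CPM in normoxia 12 h, leukocyte markers to 49.4 to 73.8 CPM against 78.1 to 115 CPM, and muscle markers to 38.8 to 64.5 CPM against 18.1 to 38.5 CPM.

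Rapid reoxygenation at 12 h against normoxia at 12 h gave a median log2 change of 0.02 over let-7 and -0.04 over all entries, and 7 of the 13 entries were higher. cel-let-7-5p was at 5465.2 and 10995.4 CPM in rapid reoxygenation against 8375.8, 11555.9 and 7154.4 CPM in normoxia (log2 change -0.19 ± 0.32, SE; 95% interval -0.87 to 0.48; limma adjusted p = 0.977). limma called 0 let-7 entries, beside 0.0% of all entries, with 0 at an unadjusted p under 0.05, and edgeR (0.0% of all entries) and DESeq2 (1.33% of all entries) called 0 let-7 entries. No overlap between groups was seen for 5.88% of the let-7 entries, beside 17.8% of all entries. The let-7 median was 0.34 without library 1 of rapid reoxygenation at 12 h and -0.27 without library 2. By the group means of the authors' deposited table, 2 of the 13 entries were higher in rapid reoxygenation and 11 lower. The erythroid markers came to 1990.5 to 2871.8 CPM in rapid reoxygenation at 12 h against 7174.7 to 13971.2 CPM in normoxia 12 h.

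Gradual reoxygenation was then set against rapid reoxygenation at the same time. At 3 h no let-7 entry separated the groups, while 19.6% of all entries did. cel-let-7-5p was at 6807.8, 6675.2 and 6471.8 CPM in gradual reoxygenation against 9196.3, 5916.3 and 5787.8 CPM in rapid reoxygenation (log2 change -0.03 ± 0.29, SE; 95% interval -0.64 to 0.57; limma adjusted p = 0.997). limma called 0 let-7 entries at 3 h, beside 0.0% of all entries, with 0 at an unadjusted p under 0.05, and edgeR (0.0% of all entries) and DESeq2 (2.33% of all entries) called 0 let-7 entries. At 12 h limma called 0, beside 0.0% of all entries, with 1 at an unadjusted p under 0.05, and edgeR (0.0% of all entries) and DESeq2 (0.664% of all entries) called 0 let-7 entries. The 1 was hsa-let-7b-5p, at 744, 608 and 490 CPM in gradual reoxygenation at 12 h against 775 and 892 CPM in rapid reoxygenation at 12 h (log2 change -0.46 ± 0.21, SE; adjusted p = 0.714). Non-overlapping groups were found for 8 let-7 entries at 12 h, all lower in gradual reoxygenation, or 23.5%, beside 20.8% of all entries. dme-let-7-5p and its copy tca-let-7-5p were among them, with dme-let-7-5p at 1030.3, 1050 and 886 CPM in gradual against 1152.1 and 1716.2 CPM in rapid reoxygenation. The let-7 median at 12 h was -0.07, and it was -0.48 without library 1 of rapid reoxygenation at 12 h and 0.37 without library 2. By the group means of the authors' deposited table, 11 of the 13 entries were higher in gradual reoxygenation at 12 h and 2 lower, where limma had 7 higher and 6 lower. Under the other scalings and tools 8 to 11 of the 13 were higher. With all libraries kept, the let-7 median at 12 h was then 0.11 with TMM factors, 0.09 with quantile normalization, 0.15 by edgeR and 0.13 by DESeq2. It was -0.05 when libraries were scaled without miR-122. At 3 h the groups did not overlap in 6 marker sums. Higher in gradual than in rapid reoxygenation were the erythroid (9457.7 to 12790.9 against 2920 to 4729 CPM), hepatocyte (109786.9 to 120812.1 against 104020.8 to 108003.8 CPM) and neural sums (7.4 to 14.5 against 4.34 to 6.26 CPM). Lower in gradual reoxygenation were the pancreatic (38.4 to 1388.4 against 2549.8 to 3513.1 CPM), epithelial (1493.2 to 2082.5 against 2997.5 to 3876.8 CPM) and vascular and stromal sums (21327.3 to 23717.8 against 25054.2 to 29644.8 CPM). At 12 h the groups did not overlap for epithelial markers, at 2660.6 to 3794.8 CPM in gradual against 1983.6 to 2525.3 CPM in rapid reoxygenation.

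Over both times, gradual minus rapid reoxygenation had a median log2 change of -0.01 over let-7 (0.02 to 0.06 under TMM, quantile and miR-122-free scaling) and -0.09 over all entries. limma called 0 let-7 entries, beside 0.0% of all entries, with 0 at an unadjusted p under 0.05, and edgeR (0.0% of all entries) and DESeq2 (0.664% of all entries) called 0 let-7 entries. The test of whether that difference changed between 3 h and 12 h called 0 by limma, beside 0.166% of all entries, with 0 at an unadjusted p under 0.05, 0 by edgeR (0.166% of all entries) and 1 by DESeq2 (5.15% of all entries), which was gga-let-7g-5p.

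Times were compared within each treatment. In hypoxia, all 13 entries had negative log2 changes at 12 h against 0 h, but only 10 to 12 of them did under the other scalings and tools. gga-let-7k-5p was at 4336.1, 4982 and 4064.8 CPM at 12 h against 4909.7, 5261.6 and 6170.1 CPM at 0 h (log2 change -0.29 ± 0.20, SE; limma adjusted p = 0.795). limma called 0 let-7 entries, beside 0.0% of all entries, with 0 at an unadjusted p under 0.05, and edgeR (0.0% of all entries) and DESeq2 (0.166% of all entries) called 0. The groups were separate for 20.6% of the let-7 entries, all lower at 12 h, beside 23.1% of all entries. Muscle markers summed to 21.5 to 50.2 CPM in hypoxia at 12 h against 65.9 to 195 CPM at 0 h, and vascular and stromal markers to 26563.2 to 29307.2 CPM against 29601.2 to 41801.1 CPM.

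In normoxia, dre-let-7h was at 308, 438 and 336 CPM at 12 h against 551 and 596 CPM at 0 h, without overlap (log2 change -0.68 ± 0.30, SE; limma adjusted p = 0.183). dre-let-7d-5p followed it, at 309, 325 and 278 CPM at 12 h against 456 and 483 CPM at 0 h. This comparison had the most calls in the table, 4.82% of all entries by limma, of which 0 were let-7, with 1 let-7 entry at an unadjusted p under 0.05. edgeR (14.3% of all entries) and DESeq2 (16.1%) also called 0 let-7 entries. Libraries of the groups did not overlap for 14.7% of the let-7 entries, beside 26.1% of all entries. The median log2 change was -0.01 over let-7 and -0.06 over all entries, and 0.377 and 0.235 when libraries were scaled without miR-122. Of the 13 entries 5 were higher at 12 h and 8 lower, and 9 higher and 4 lower under that scaling. miR-122 made up 17.5% of the CPM in library 2 of normoxia 0 h and 33.5% in library 3. Without library 3 of normoxia 0 h, the 12 h libraries were set against library 2 alone. limma then gave log2 changes of 1.27 for hsa-let-7b-3p, 0.81 for dme-let-7-5p, 2.01 for hsa-let-7e-5p and 0.58 for xtr-let-7g. These entries were picked by their p-values in that fit. DESeq2 without library 3 gave log2 changes of 1.55 for hsa-let-7b-3p and 2.68 for hsa-let-7e-5p, but -0.85 for dre-let-7h. Erythroid markers summed to 7174.7 to 13971.2 CPM at 12 h against 823 to 2313.1 CPM at 0 h, pancreatic markers to 470 to 2909.2 CPM against 4133.8 to 4269.7 CPM, epithelial markers to 1394.5 to 2901.3 CPM against 3076.2 to 19714.3 CPM, and vascular and stromal markers to 19752.1 to 24654.4 CPM against 34150.5 to 69305.8 CPM. In library 2 of normoxia 0 h efu-miR-143 was at 65321.6 CPM, while dre-miR-126a-3p, mmu-miR-199a-5p and hsa-miR-222-3p were at their lowest of the 22 libraries.

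In gradual reoxygenation, gmo-let-7j-3p, a low 3p entry named in Atlantic cod, had the smallest adjusted p of any let-7 entry in any limma test. It was at 1.26, 1.76 and 1.03 CPM at 12 h against 3.58, 2.55 and 2.34 CPM at 3 h, without overlap (log2 change -0.70 ± 0.23, SE; limma adjusted p = 0.11). In these libraries 1 CPM stands for 17.5 to 33.8 reads, and the entry is not one of the 13. limma called 0 let-7 entries, beside 1.83% of all entries, with 1 at an unadjusted p under 0.05, edgeR called 0 (0.0% of all entries) and DESeq2 called 1 (8.8% of all entries), gga-let-7g-5p. Separation of the groups held for 17.6% of the let-7 entries, all lower at 12 h, beside 29.6% of all entries. Most let-7 entries went the other way, with positive log2 changes at 12 h for 22 of the 34 and for 11 of the 13. Under the other scalings and tools 10 to 13 of the 13 were higher. The median log2 change was 0.14 over let-7 and -0.12 over all entries. The erythroid markers came to 863 to 4500.8 CPM at 12 h against 9457.7 to 12790.9 CPM at 3 h, epithelial markers to 2660.6 to 3794.8 CPM against 1493.2 to 2082.5 CPM, muscle markers to 38.8 to 64.5 CPM against 24.8 to 27.7 CPM, and leukocyte markers to 49.4 to 73.8 CPM against 74.9 to 96.1 CPM. In bulk liver, fewer cells of a type and less RNA per cell cannot be told apart.

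In rapid reoxygenation, pma-let-7d was at 9.78 and 20.1 CPM at 12 h against 8.18, 3.4 and 3.64 CPM at 3 h (log2 change 1.40 ± 0.43, SE; limma adjusted p = 0.887). limma called 0 let-7 entries, beside 0.0% of all entries, with 1 at an unadjusted p under 0.05, and edgeR (0.0% of all entries) and DESeq2 (0.498% of all entries) called 0 let-7 entries. No overlap between groups was seen for 14.7% of the let-7 entries, beside 16.6% of all entries. The let-7 median was 0.125, and it was 0.44 without library 1 of rapid reoxygenation at 12 h and -0.26 without library 2. By the group means of the authors' deposited table all 13 entries were lower at 12 h, where the mean of the libraries used was higher for 9. Erythroid markers summed to 1990.5 to 2871.8 CPM at 12 h against 2920 to 4729 CPM at 3 h, and epithelial markers to 1983.6 to 2525.3 CPM against 2997.5 to 3876.8 CPM. Neural markers summed to 7.48 to 15 CPM at 12 h against 4.34 to 6.26 CPM at 3 h.

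gga-let-7g-5p and gga-let-7i were each high in single libraries. gga-let-7g-5p, whose values equal those of mouse mmu-let-7g-5p, had a mean of 13.5 ± 29.6 CPM (SD, n = 22). It was at 142, 4.12 and 6.83 CPM in gradual reoxygenation at 12 h, at 3.11, 8.95 and 36.2 CPM in rapid reoxygenation at 3 h, and between 3.1 and 12 CPM in the 16 libraries of the other groups. One library thus sets its value for gradual reoxygenation at 12 h. DESeq2 gave a log2 change of 3.52 against hypoxia 12 h (adjusted p = 0.00852), and without library 1 of gradual reoxygenation 0.33 (adjusted p = 0.923). The DESeq2 calls of gga-let-7g-5p against normoxia 12 h (3.69 with library 1 and 0.51 without it), against gradual reoxygenation at 3 h (3.65 and 0.46) and in the gradual and rapid difference between times (4.95 and 1.77) were likewise lost. In library 1 of gradual reoxygenation at 12 h, 15 of the 602 tested entries were over 2 times their next highest value, and gga-let-7g-5p was the one let-7 entry among them. Others were the neural marker oha-miR-9-3p (325 CPM against at most 29 CPM elsewhere, while the other neural marker, ola-miR-124-5p, was highest in library 2 of gradual reoxygenation at 3 h, at 1.87 CPM), hsa-miR-148a-3p (312 against 95.9 CPM), hsa-miR-139-5p (34.5 against 3.72 CPM) and hsa-miR-29a-3p (18.5 against 7.86 CPM). Several of the 15 were miR-9 entries with almost equal values, among them aca-miR-9-5p and oha-miR-9-3p, so they are not 15 separate miRNAs. The part of these entries in the let-7g value was not tested.

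gga-let-7i, equal in value to mmu-let-7i-5p, was highest in library 3 of rapid reoxygenation at 3 h, at 394 CPM, the library with the second highest gga-let-7g-5p. Libraries 1 and 3 of gradual reoxygenation at 12 h followed at 325 and 316 CPM, and library 2 of that group was at 151 CPM. All other libraries were between 121 and 271 CPM. In library 3 of rapid reoxygenation at 3 h, 6 entries were over 2 times their next highest value, all of them of the miR-10 and miR-30 families, such as hsa-miR-10a-5p (219 against 21.5 CPM) and hsa-miR-30a-5p (139 against 41.2 CPM).

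**Figure D4:**
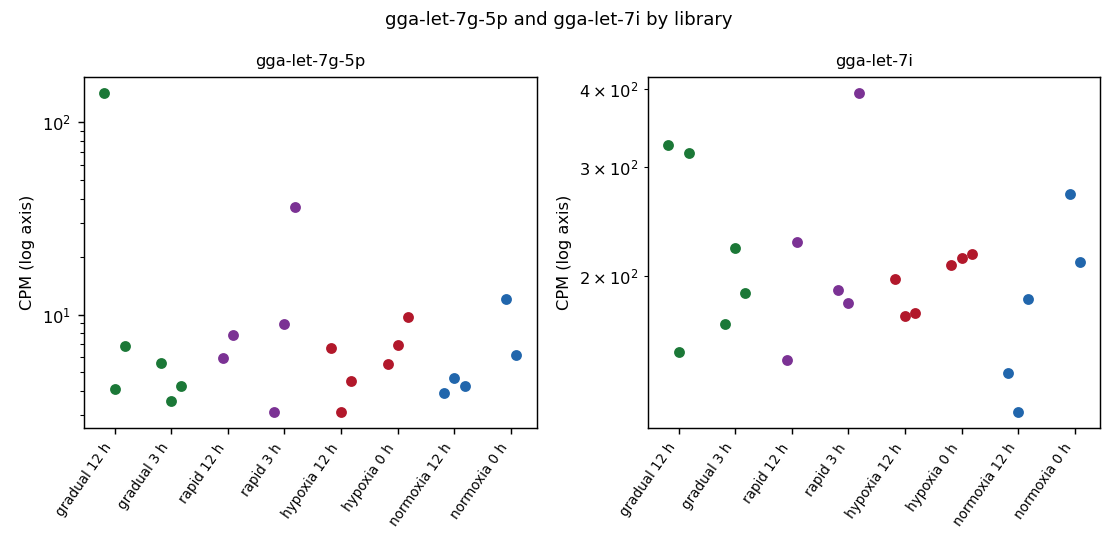
Level in CPM (y axis, log scale) of gga-let-7g-5p and gga-let-7i in each library (points) by group (x axis). gga-let-7g-5p reaches 142 CPM in 1 library of gradual reoxygenation at 12 h and 36.2 CPM in 1 of rapid reoxygenation at 3 h, and gga-let-7i is highest, at 394 CPM, in that library of rapid reoxygenation.

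Across the 22 libraries some of the entries varied together. These correlations, on log2(CPM + 1), describe libraries that share their groups, depth and scaling, and entries that may share reads. cel-let-7-5p went with hsa-let-7f-5p (Pearson r = 0.88), ola-let-7c (0.855) and dre-let-7g (0.83), and hsa-let-7f-5p went with dre-let-7g (0.94). A second pair, dre-let-7h and dre-let-7d-5p, had r = 0.849, and dre-let-7d-5p had r = 0.866 with ola-let-7c. dme-let-7-5p was nearest to hsa-let-7b-5p (r = 0.8). gga-let-7k-5p had a lower r with cel-let-7-5p (0.446), and xtr-let-7g had -0.116. gga-let-7i ran slightly against cel-let-7-5p (r = -0.34) and went with gga-let-7g-5p (r = 0.698). Taken on deviations from group means, cel-let-7-5p had 0.93 with hsa-let-7f-5p, 0.573 with gga-let-7k-5p and -0.352 with gga-let-7i. The pair of hsa-let-7f-5p and dre-let-7g stayed close, at 0.96, but some other pairs moved more. gga-let-7k-5p with dme-let-7-5p went from 0.317 to 0.72, and xtr-let-7g with oha-let-7a-3-3p from 0.115 to 0.585.

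**Figure D5:**
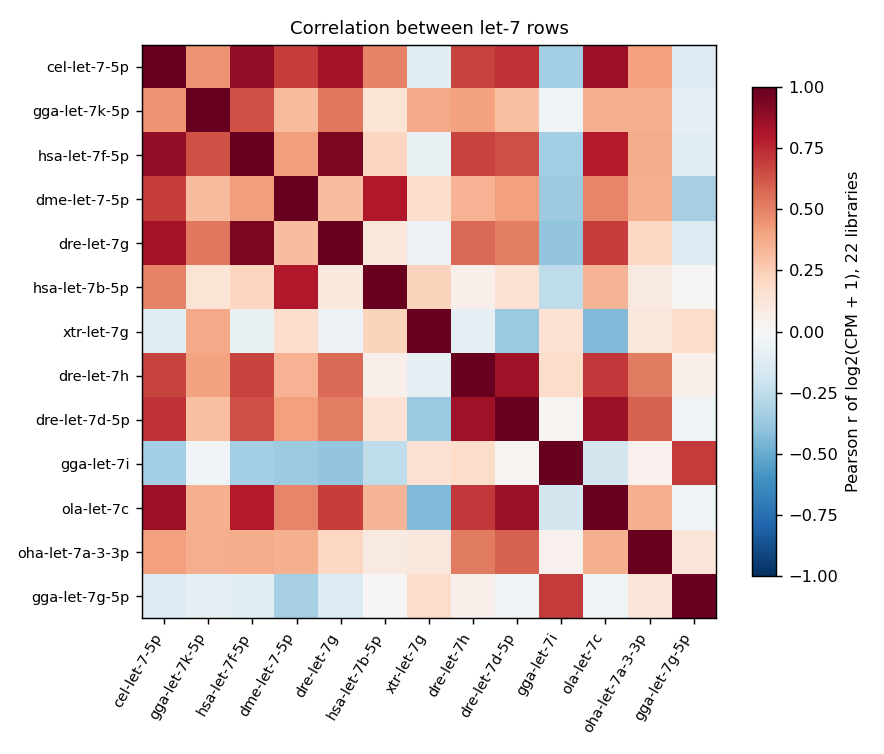
Pearson correlation (colour, -1 to 1) of log2(CPM + 1) between 13 let-7 entries over 22 libraries. The block of cel-let-7-5p, hsa-let-7f-5p, dre-let-7g and ola-let-7c is dark red (0.88 for cel-let-7-5p with hsa-let-7f-5p), while gga-let-7i and gga-let-7g-5p pair with each other (0.698) and xtr-let-7g has -0.116 with cel-let-7-5p.

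In vertebrate genomes several let-7 genes lie in one transcript with miR-99 or miR-100 and miR-125. Of 8 such names, 7 were tested and 0 were called by limma in any of the comparisons, where it called 0.0% to 4.82% of all entries. Calls of these names by edgeR and DESeq2 were not counted. ola-miR-100 averaged 19483.4 ± 2936.9 CPM (SD, n = 22), above cel-let-7-5p, hsa-miR-99a-5p 652 CPM and mmu-miR-125b-5p 479 CPM. In gradual reoxygenation at 12 h minus hypoxia 12 h, 0 of the 7 were higher and 7 lower, with a median log2 change of -0.12, close to the -0.11 of all entries, where let-7 had a median of 0.14. dvi-miR-125-5p and mmu-miR-125b-5p, at 476 and 479 CPM, are near copies among the 7. Over hypoxia minus normoxia, averaged over both times, all 7 were higher, with a median of 0.13, where let-7 had -0.13. The 7 log2 changes ran from 0.01 to 0.36 (limma adjusted p 0.861 to 0.986). When libraries were scaled without miR-122 the let-7 median was -0.01. Library 2 of normoxia 0 h was the lowest of the 22 for ola-miR-100 (10698.1 CPM), aca-miR-99b-5p (72.5 CPM), dvi-miR-125-5p (313 CPM) and mmu-miR-125b-5p (314 CPM). The part of that library was not tested. hsa-miR-98-5p, a let-7 relative with the same seed in mammals, was barely present at a mean of 0.398 CPM.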

How the data were processed

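Liver RNA was extracted with Trizol and small RNAs were sequenced, per the labels' protocols. Bowtie is named in the submitters' processing notes, with no version; the reference set and counting rule are not given in the sources used. The authors deposited a table of CPM values, which they name TPM, with the same total in every library. Values were whole multiples of 1 read in 100% of cells within 0.01 reads, so reads were recovered.

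Entries with identical values were counted once, and those reaching 1 CPM in 2 or more libraries were tested on log2(CPM + 1) with limma 3.58.1 (trend, all 8 groups, Benjamini-Hochberg, threshold 0.05). The recovered reads went into edgeR 4.0.16 and DESeq2 1.42.0 (R 4.3.3). Scripts were tested on simulated data. Entries named in full were the most abundant of each letter and arm with a mean of at least 10 CPM, with 13 entries that were not near copies. Members and lists were chosen with earlier results of these data known. Alternatives were other pseudocounts, filters, scalings and tools, a replicate block and leaving out each library. DESeq2 without 1 library was added after seeing the data. Same-numbered libraries did not vary together, so numbers were not used as pairs. The authors' deposited group means entered no test, and for rapid reoxygenation at 12 h and normoxia 0 h they differ from the mean of the libraries used. Mature sequences are not printed because no sequence table was used.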

Additional observations from a re-analysis of the deposited data

How the results depend on the processing

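Counts of let-7 entries past the threshold were recomputed 702 times, and 28 were above 0. limma called 0 let-7 entries under every pseudocount, filter and scaling tried, and with the replicate block, where the number of calls was 0 in each comparison. Same-numbered libraries had a median correlation of deviations of -0.0556 over 70 pairs, 15 of them over 0.1. edgeR called 1 in the test of any difference. DESeq2 called 3 in hypoxia minus normoxia at 0 h, 5 in gradual reoxygenation minus hypoxia at 12 h, 3 in gradual reoxygenation minus normoxia at 12 h, 1 in gradual reoxygenation at 12 h minus 3 h, 1 in the gradual and rapid difference between times, and 8 in the test of any difference.

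Leaving out 1 library gave 0 to 4 calls in hypoxia minus normoxia at 0 h, 0 to 5 in gradual reoxygenation minus hypoxia at 12 h, 0 to 3 in gradual reoxygenation minus normoxia at 12 h, and 0 to 6 in normoxia at 12 h minus 0 h. The ranges were 0 to 1 in gradual reoxygenation at 12 h minus 3 h and in the gradual and rapid difference between times, 0 to 4 in hypoxia minus normoxia over both times, 0 to 2 in gradual minus rapid reoxygenation over both times and in the hypoxia difference between times, and 0 to 9 in the test of any difference, where DESeq2 called 7 without library 1 of gradual reoxygenation at 12 h, 9 when normoxia 0 h lacked library 2, and 5 when it lacked library 3. The upper ends came from DESeq2, apart from those of 6 calls and of the hypoxia difference between times, which came from limma without library 3 of normoxia 0 h. The cause was not tested. DESeq2 was refitted only without library 1 of gradual reoxygenation at 12 h, or without library 2 or 3 of normoxia 0 h. Its part of these ranges therefore does not cover every library. The refits without library 2 or 3 leave normoxia 0 h with 1 library, and the shares of all entries called in the refits are not given.

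Of 666 recomputed medians, 69 had the other sign and 1 moved by at least 0.436 log2 units, the SD of a library median. That was gradual minus rapid reoxygenation at 12 h, with a median of -0.0681, which was 0.372 without library 2 of rapid reoxygenation and -0.475 without library 1. Depth limits mostly the 22 entries below the filter.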
